A study of Mus musculus with 8 samples.

Results

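Retinoic acid acts through 6 nuclear receptor genes: Rara, Rarb and Rarg, which encode the retinoic acid receptors (RARs), and Rxra, Rxrb and Rxrg, which encode the retinoid X receptors (RXRs). Their transcripts are described here in the splenocytes of mice given all-trans retinoic acid (tRA), the acid form of vitamin A. The genes were found by symbol, through the Ensembl identifiers of the deposited count table, and all 6 were among its 51826 genes. Of the 6, 5 passed the filter on low counts that left 16484 genes for testing, and Rxrg did not.

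RARs bind tRA and work in a pair with an RXR, on DNA elements made of a short repeated hexamer. Without ligand the pair holds a corepressor complex with a histone deacetylase at its target genes, and ligand exchanges this complex for coactivators. RXRs also pair with the liver X, peroxisome proliferator-activated, vitamin D and thyroid hormone receptors, and in lymphoid tissue retinoic acid is best known for its effects on dendritic cells and on the homing of lymphocytes to the gut.

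The data are 8 RNA-seq libraries, each made from the whole spleen cells of 1 female Balb/c mouse 3 months old, and no mouse had been injected with pristane. The tRA group comprised 4 mice dosed orally every day from weaning, and the control group comprised 4 mice that, by the methods of the study, received canola oil alone. The sample labels list tRA at 1 mg/kg for every mouse, controls included, so the groups follow the sample titles. Red blood cells were lysed before RNA was prepared. Counts on genes totaled 30919272 to 37539631 in the control mice and 31810417 to 35165876 in the tRA mice. Levels are given as CPM, the usual scaling of counts to library size, with sizes normalized by TMM, and every fold change is tRA over control on the log2 scale. In whole splenocytes, fewer cells of a type and less RNA per cell cannot be told apart.

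When p-values of edgeR's quasi-likelihood test were adjusted over all genes (Benjamini-Hochberg), 0 of the 5 receptor genes tested had an FDR under 0.1, and neither did any other gene (0% of 16484). At an unadjusted p under 0.05 the count was 0 of 5 receptor genes, against 1070 genes or 6.49% of all those tested. That background moves with single mice: it was 2105 of 16683 genes without tRA replicate 1 and 657 of 16732 without tRA replicate 4. Rarb passed this p in 2 of the 8 fits that each left out 1 mouse, at 0.0396 without control replicate 2 and 0.0483 without tRA replicate 1 (edgeR). DESeq2 called 44 genes and limma-voom 1 gene at the same FDR, with 0 receptor genes among them. For 584 genes, or 3.54%, the 4 mice of one group all lay above the 4 of the other, and 0 of the 6 receptor genes were of this kind.

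Rara (ENSMUSG00000037992, chromosome 11, 98927818 to 98974942, plus strand) encodes RARα, the main RAR of most blood cells. It was expressed at 115, 142, 134 and 124 CPM in control replicates 1 to 4, and at 144, 132, 128 and 141 CPM in tRA replicates 1 to 4. Control replicate 1 was the lowest mouse and tRA replicate 1 the highest, and 3 of the 4 tRA mice lay within the range of the controls. The means were 129 ± 11.6 CPM in control and 136 ± 7.25 CPM in tRA mice (SD, n = 4 each). The log2 fold change was 0.079 (SE 0.0764, 95% interval -0.090 to 0.25), with an FDR of 0.856 in edgeR's quasi-likelihood test. In linear terms the interval spans 0.940-fold to 1.19-fold.

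Rarg (ENSMUSG00000001288, chromosome 15, 102234938 to 102257517, minus strand) encodes RARγ, which is prominent in skin and in hematopoietic progenitors. Its level was 40.9, 48.2, 53.5 and 52.4 CPM in the control mice and 48.8, 45.0, 48.0 and 46.0 CPM in the tRA mice. All 4 tRA mice lay within the control range, which control replicate 1 opened at its low end. With means of 48.8 ± 5.73 CPM and 47.0 ± 1.76 CPM (SD, n = 4 each), the log2 fold change was -0.054 (SE 0.0883, 95% interval -0.25 to 0.14), and edgeR's quasi-likelihood test gave an FDR of 0.914.

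Rarb (ENSMUSG00000017491, chromosome 14, 16430839 to 16819156, minus strand) encodes RARβ, whose gene is itself a textbook target of retinoic acid. It had 51, 55, 37 and 46 counts in the control mice and 53, 67, 64 and 70 counts in the tRA mice. On the normalized scale these are 1.38, 1.71, 1.07 and 1.49 CPM in control and 1.62, 2.11, 1.74 and 2.14 CPM in tRA mice. The values of 3 tRA mice were above the highest control, tRA replicate 1 was below control replicate 2, and so the groups overlapped. The means were 1.41 ± 0.267 CPM and 1.90 ± 0.263 CPM (SD, n = 4 each). The log2 fold change was 0.43 (SE 0.208, 95% interval -0.029 to 0.89), or 1.35-fold with an interval from 0.980-fold to 1.85-fold. In edgeR's quasi-likelihood test the unadjusted p was 0.0637 and the FDR 0.776. Counting error alone gives a coefficient of variation of 13.7% at these counts, and the mice of a group varied by 18.9% (control) and 13.8% (tRA).

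The counts of Rarb are uncertain for another reason. Exons of Top2b, which encodes a DNA topoisomerase and lies on the opposite strand, cover 1793 of the 5265 exon bases of Rarb (34.1%), and the antisense transcript Gm48162 covers 227 (4.31%). The libraries were made with a TruSeq v2 RNA kit, a protocol that does not mark the strand, so reads from the shared bases cannot be assigned to either gene. How the counting treated such reads is not stated in the sources used here. Top2b stood at 239, 236, 208 and 218 CPM in the control mice and at 223, 241, 225 and 261 CPM in the tRA mice, with a log2 fold change of 0.078 (SE 0.0755, FDR 0.857 in edgeR's quasi-likelihood test). Across the 8 mice, log2 CPM of Rarb and Top2b correlated with Pearson's r = 0.792 and Spearman's rho = 0.738. The exact permutation p of r was 0.0205 (two-sided) and 0.113 after Benjamini-Hochberg adjustment over 11 relations, which are this one and the 10 pairs of receptor genes. Of the pairs, Rarb and Rxrb had the lowest exact permutation p, 0.00880 unadjusted and 0.0969 adjusted (r = -0.842, and -0.778 without the same 2 mice). The permutations did not keep control and tRA mice apart, so a group difference of both genes can enter r and its p. Without tRA replicate 4 and control replicate 3, the mice farthest from the median of Top2b, r of Rarb and Top2b was 0.369, so the value depends on these mice. Their removal also narrows the range of Top2b. Per 1000 counts of Top2b there were 5.78, 7.25, 5.15 and 6.82 counts of Rarb in the control mice and 7.26, 8.74, 7.70 and 8.19 in the tRA mice. The part of Top2b reads in the difference of Rarb was not tested. Of the other receptor genes, Rara contains a small nuclear RNA gene that shares no exon base with it, and no annotated gene overlaps Rarg, Rxra, Rxrb or Rxrg.

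Rxrb (ENSMUSG00000039656, chromosome 17, 34031812 to 34038399, plus strand) encodes RXRβ, the RXR found in nearly every tissue. It stood at 99.2, 94.0, 103 and 99.1 CPM in the control mice and at 102, 91.5, 96.5 and 94.2 CPM in the tRA mice. The lowest mouse was tRA replicate 2, and the other 3 tRA mice lay within the control range. Means were 98.9 ± 3.79 CPM and 96.1 ± 4.60 CPM (SD, n = 4 each). The log2 fold change was -0.041 (SE 0.0613, 95% interval -0.18 to 0.095), with an FDR of 0.904 in edgeR's quasi-likelihood test, and the interval spans 0.885-fold to 1.07-fold.

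Rxra (ENSMUSG00000015846, chromosome 2, 27676440 to 27762957, plus strand) encodes RXRα, the RXR of liver, skin and myeloid cells. Its level was 27.0, 35.6, 30.2 and 26.1 CPM in the control mice and 30.8, 27.1, 33.8 and 28.0 CPM in the tRA mice. All tRA mice lay within the control range, from control replicate 4 to control replicate 2. The means of 29.7 ± 4.31 CPM and 30.0 ± 3.03 CPM (SD, n = 4 each) gave a log2 fold change of 0.012 (SE 0.111, 95% interval -0.23 to 0.26) and an FDR of 0.989 in edgeR's quasi-likelihood test. Its sign depends on single mice: it was negative in 4 of the 8 fits that each left out 1 mouse.

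Rxrg (ENSMUSG00000015843, chromosome 1, 167598384 to 167639623, plus strand) encodes RXRγ, which is mainly a receptor of muscle and brain. It had 1, 4, 1 and 1 counts in the control mice and 1, 1, 5 and 3 in the tRA mice. The sums of 7 and 10 counts correspond to 0.0520 and 0.0746 CPM, with exact Poisson 95% intervals of 0.0209 to 0.107 and 0.0358 to 0.137. The ratio of tRA to control was 1.43, with an exact 95% interval from 0.493 to 4.44. Fitted with no filter on low counts, its log2 fold change was 0.46 (FDR 0.916 in edgeR's quasi-likelihood test), a value that depends on the prior count. The intervals cover counting error only, and a difference of Rxrg was not detectable at this depth.

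**Figure D1:**
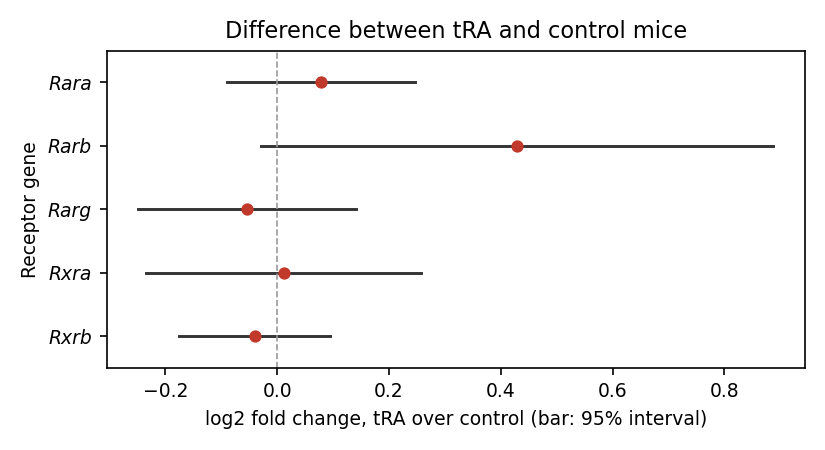
Log2 fold change of the 5 receptor genes tested, tRA over control (horizontal axis), with one gene per line; points are estimates from edgeR and bars their 95% intervals. Each interval includes 0, and that of Rarb, the gene with the fewest counts, is the widest.

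Divided by exon length, the levels of the 6 genes can be compared with each other. Over the 8 mice, the mean was 30.4 ± 2.24 CPM per kb for Rara, 24.5 ± 1.05 for Rxrb, 11.2 ± 0.949 for Rarg, 5.46 ± 0.632 for Rxra, 0.315 ± 0.0681 for Rarb and 0.0273 ± 0.0204 for Rxrg (SD, n = 8). Each gene was above the next one in all 8 mice, and for no pair of neighbours did the values of the 8 mice overlap. The closest pair was Rara, whose lowest mouse had 26.4 CPM per kb, and Rxrb, whose highest had 26.0. This separation depends on the length used: with the longest transcript in place of all exon bases, Rara (39.2 CPM per kb) was above Rxrb (37.1) in 6 of the 8 mice and their values overlapped, while the other 4 pairs stayed apart. The largest step depends on the length too: it was from Rxra to Rarb over all exon bases (17.4-fold, against 11.5-fold from Rarb to Rxrg) and from Rarb to Rxrg with the longest transcript (17.9-fold, against 11.4-fold).

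**Figure D2:**
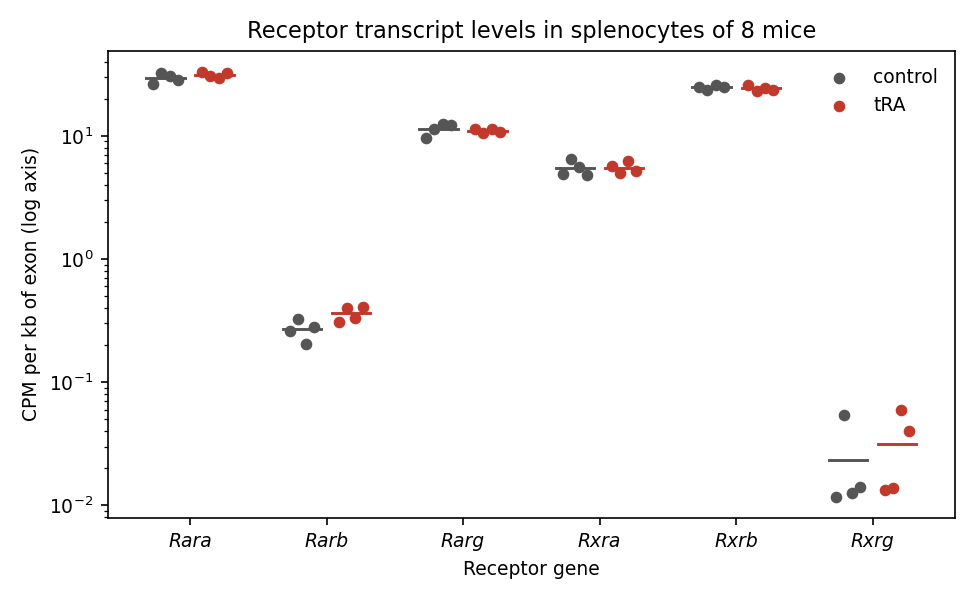
Level of each receptor gene in each of the 8 mice, as CPM per kb of exon on a log axis (vertical), by gene (horizontal) and group; points are mice and short lines group means (n = 4 each). Rara and Rxrb lie highest, between 23.0 and 32.9 CPM per kb, and Rxrg lowest, at no more than 0.0590.

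Within each class, 1 gene held most of the summed level per length. Rara made up 71.6 ± 1.99% of the RAR level in control and 73.3 ± 1.10% in tRA mice (SD, n = 4 each), and Rarg made up 27.7 ± 2.05% and 25.9 ± 1.13%. The share of Rarb was 0.653 ± 0.126% in control and 0.850 ± 0.130% in tRA mice. Among the RXRs, Rxrb held 82.0 ± 2.58% in control and 81.5 ± 1.30% in tRA mice, Rxra held 17.9 ± 2.51% and 18.4 ± 1.24%, and Rxrg held 0.0765 ± 0.0686% and 0.106 ± 0.0729%. The ranges of the groups overlapped for each of the 6 shares. Summed over the class, the RAR level was 41.3 ± 3.57 CPM per kb in control and 42.6 ± 1.79 in tRA mice, and the RXR level was 30.4 ± 0.803 and 29.7 ± 1.54 (SD, n = 4 each). The ratio of RAR to RXR level per length was 1.36 ± 0.105 in control and 1.44 ± 0.0706 in tRA mice (SD, n = 4 each), and here too the values of the groups overlapped.

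The receptor genes also differed in how much they varied between mice of a group. Rxrb was among the steadiest genes, with a pooled SD of 0.0620 on the log2 scale, at the 4.54th percentile of all genes tested, whose median was 0.177. The SD was 0.107 for Rara (21.9th percentile), 0.129 for Rarg (31.7th), 0.173 for Rxra (48.5th) and 0.185 for Rarb (53.0th). By level per length, Rxrb was at the 86.8th percentile of the same genes and Rarb at the 12.1th, and the part of the level in these SDs was not tested. The SDs are those of log2 (CPM + 0.5), which narrows the spread of genes near 1 CPM, such as Rarb.

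Among the 49 mouse nuclear receptor genes, of which 47 had at least 1 count and 32 were tested, Rara ranked 3rd by mean level per length, Rxrb 4th, Rarg 8th, Rxra 10th, Rarb 27th and Rxrg 36th. In single mice Rara was 3rd in all 8, while Rxrb was 4th or 5th, Rarg 6th to 9th, Rxra 9th to 11th, Rarb 24th to 28th and Rxrg 34th to 39th. The genes above Rara were Nr4a1 (Nur77, an orphan receptor induced by antigen receptor signals), at 253.7 ± 140.1 CPM per kb, and Nr1h2 (liver X receptor β), at 49.2 ± 2.69 (SD, n = 8). Rarg was next to Esrra, an orphan receptor that drives mitochondrial genes, whose 11.5 ± 1.63 CPM per kb differed from the 11.2 ± 0.949 of Rarg by less than either SD. Esrra was also the 1 gene of the 32 with an unadjusted p under 0.05, beside 6.49% of all genes. It stood at 58.8, 50.3, 61.9 and 49.9 CPM in the control mice and at 52.9, 43.4, 44.0 and 42.5 CPM in the tRA mice. The tRA mice other than replicate 1 were below every control, and the log2 fold change was -0.27 (SE 0.0981, unadjusted p = 0.0184, FDR 0.757 in edgeR's quasi-likelihood test). With control replicate 1, control replicate 3 or tRA replicate 4 left out, the unadjusted p of Esrra in the same test rose to 0.0523, 0.0501 and 0.0524. The median log2 fold change of the 32 genes was -0.0073, with 16 positive and 16 negative, beside a median of 0.0014 over all genes tested. Without 1 mouse it ranged from -0.029 to 0.050, and with all 8 mice it was 0.022 with library size alone, 0.013 with limma-voom and 0.0058 with a replicate block. Its sign thus depends on single mice, on scaling and on the tool.

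**Figure D3:**
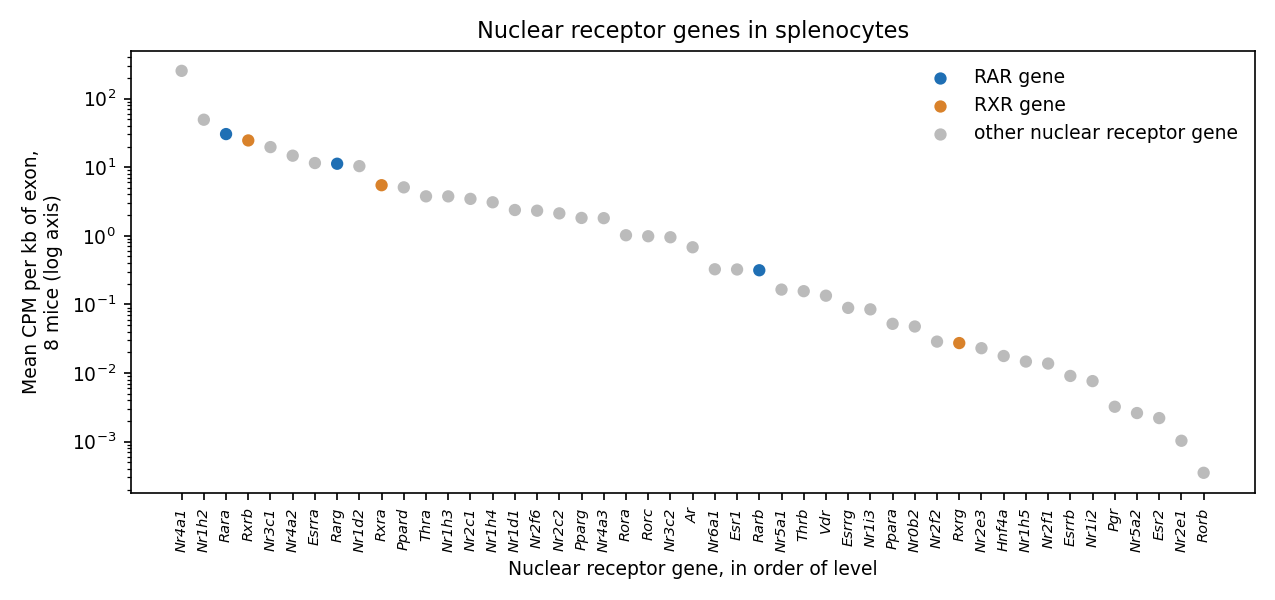
Mean level of 47 nuclear receptor genes over the 8 mice, as CPM per kb of exon on a log axis (vertical), in order of level (horizontal); blue marks RAR genes and orange RXR genes, and the 2 genes without a count are not drawn. Rara and Rxrb follow Nr4a1 and Nr1h2, and Rxrg ranks 36th.

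Of the 6 receptor genes, Rarb was the one with a retinoic acid response element of the classical form in the promoter windows searched. RefSeq promoter windows (250 bases before to 50 after a start of transcription, GRCm38.p6) were given for all 6 genes, 13 windows in all. They were searched on both strands for 4 half-sites (AGGTCA as the consensus, the related GGGTCA as well, and likewise AGTTCA together with its relative GGTTCA) and for direct repeats of any 2 of these with 1, 2 or 5 bases between them. A direct repeat with 5 bases between (DR5) was found in the 1 window of Rarb and in 0 of the other 12 receptor windows, and it occurred in 32 of all 32851 windows, or 0.0974%. Repeats with 1 or 2 bases between were in 0 of the 13 receptor windows, against 0.222% and 0.268% of all windows. At least 1 half-site was in 7 of the 13, against 43.7% of all windows. An element outside the windows, or one with half-sites other than these 4, would not be found by this search. Among 21 windows of 13 retinoic acid target genes, Cyp26a1, which encodes a retinoic acid hydroxylase, held the 1 other DR5. Both repeats are shown with 6 bases on each side, half-sites in capitals, because they are the elements through which RARs are known to act on these genes:
Rarb: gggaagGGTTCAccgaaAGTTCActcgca
Cyp26a1: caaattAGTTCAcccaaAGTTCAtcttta
The Rarb stretch is chr14:16575507-16575535 on the minus strand, the strand of the gene. Its repeat lies 53 to 37 bases before the RefSeq start, in what GENCODE M21 annotates as the first exon of 2 Rarb transcripts. The Cyp26a1 stretch is chr19:37697770-37697798, printed from the minus strand and so opposite to its gene, with its repeat 32 to 16 bases before the start. Such a match describes the letters in the window and not the binding of a receptor. In the spleen, Rarb had 37 to 70 counts per mouse and Cyp26a1, named after its values were seen, 0 to 13.

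Of 13 genes for receptors that pair with RXRs, 11 were tested, and 0 had an FDR under 0.1 or an unadjusted p under 0.05 with all 8 mice. Their median log2 fold change was -0.042, with 4 positive and 7 negative values, but 0.050 without control replicate 2 and 0.014 without tRA replicate 4, so its sign rests on single mice. The highest by mean level per length over the 8 mice were Nr4a1, Nr1h2 and Nr4a2, an order that did not hold in every mouse. In tRA replicate 3 Nr4a1 was at 45.4 CPM per kb and Nr1h2 at 45.9, and Nr4a2 was at 2.67 and 3.08 CPM per kb in tRA replicates 3 and 4, the 15th and 14th place among the nuclear receptor genes. Nr1h2 was steady at 171, 175, 157 and 167 CPM in the control mice and 178, 159, 154 and 159 CPM in the tRA mice (log2 fold change -0.043, SE 0.0669). Without 1 mouse this log2 fold change ranged from -0.089 to -0.019. Nr4a1 stood at 1149.8, 952, 956 and 1046 CPM in the control mice and at 1679.5, 946, 159 and 233 CPM in the tRA mice. The log2 fold change of Nr4a1 was -0.44 with all 8 mice, and -1.05 with limma-voom or a replicate block. Without tRA replicate 1 it was -1.20, with an unadjusted p of 0.0330 in edgeR's quasi-likelihood test. Nr4a2, a close relative of Nr4a1, stood at 61.5, 68.7, 54.8 and 82.5 CPM in control and at 110.4, 76.6, 10.8 and 12.5 CPM in tRA mice. For both genes tRA replicate 1 was the highest mouse and tRA replicates 3 and 4 were the lowest, whereas the receptor genes Rara, Rarg, Rxra and Rxrb had tRA replicates 3 and 4 within the control range. Rarb was above the highest control in both of these mice, and Rxrg, at 5 and 3 counts, was above it in tRA replicate 3.

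The corepressor and coactivator genes of the RAR and RXR pair were all tested, 17 of 17, with 0 at an FDR under 0.1. Their median log2 fold change was 0.091, with 14 positive and 3 negative values. Without control replicate 3 the median was -0.014, so its sign rests on that mouse, and without tRA replicate 4 it was 0.015. Gps2 and Tbl1x, which encode subunits of the corepressor complex around Hdac3, were the 2 of 17 genes whose groups did not overlap, beside 3.54% of all genes. Hdac3 itself (log2 fold change -0.11) and Tbl1xr1 (-0.10) were among the 3 genes with a negative value. Gps2 stood at 146, 143, 136 and 145 CPM in the control mice and at 162, 155, 150.1 and 149.7 CPM in the tRA mice, a log2 fold change of 0.11 (SE 0.0579, unadjusted p = 0.0792, FDR 0.780 in edgeR's quasi-likelihood test). Tbl1x stood at 90.0, 91.6, 79.4 and 90.7 CPM in control and at 96.1, 101, 96.1 and 107 CPM in tRA mice, a log2 fold change of 0.19 (SE 0.0689, unadjusted p = 0.0205, FDR 0.757 in the same test). Without 1 mouse the unadjusted p of Tbl1x reached 0.0682 in this test. The other named genes were Ncoa3, a coactivator of the p160 family, at 316 ± 39.3 CPM in control and 333 ± 16.3 CPM in tRA mice, and Sin3a, a scaffold of deacetylase complexes, at 134 ± 13.1 and 141 ± 3.54 CPM (SD, n = 4 each).

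Of 18 retinoic acid target genes, 11 were tested and 0 had an FDR under 0.1. At an unadjusted p under 0.05, 2 were higher and 1 was lower in tRA mice, beside 6.49% of all genes in either direction. The median log2 fold change of the 11 was -0.13, with 5 positive and 6 negative values, and it ranged from -0.18 to -0.034 without 1 mouse. With no filter on low counts, which admits more of the 18 genes, the median was 0.098, so its sign depends on the filter. Ccr9, the chemokine receptor of gut-homing lymphocytes, stood at 14.3, 16.9, 16.2 and 20.0 CPM in the control mice and at 16.3, 22.3, 26.2 and 27.3 CPM in the tRA mice. Its groups overlapped through tRA replicate 1, and the log2 fold change was 0.45 (SE 0.160, unadjusted p = 0.0164, FDR 0.757 in edgeR's quasi-likelihood test). In the same test the unadjusted p was 0.0538 without tRA replicate 4 and 0.0506 without control replicate 1. Itga4, the integrin α4 chain of the gut-homing integrin, stood at 368, 391, 297 and 369 CPM in control and at 377, 437, 390.0 and 547 CPM in tRA mice. The log2 fold change of Itga4 was 0.30 (SE 0.126, unadjusted p = 0.0382, FDR 0.757 in the same test). Without tRA replicate 4, the highest mouse, it was 0.17, with an unadjusted p of 0.134 in edgeR's test. The unadjusted p of Itga4 in this test was also above 0.05 without control replicate 1 (0.0549), 3 (0.113) or 4 (0.0537), or tRA replicate 2 (0.0710).

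Cebpe, a transcription factor of granulocyte precursors, was the target gene with the lower value. It stood at 1.95, 2.86, 2.80 and 2.04 CPM in the control mice and at 0.886, 1.10, 1.30 and 2.17 CPM in the tRA mice, so that tRA replicate 4 lay within the control range. The log2 fold change was -0.82 (SE 0.282, unadjusted p = 0.0145, FDR 0.757 in edgeR's quasi-likelihood test). The 7 marker genes of neutrophil precursors, which use Cebpe, summed to 491, 613, 652 and 554 CPM in the control mice and to 217, 266, 294 and 424 CPM in the tRA mice. All 7 were detected and had a negative log2 fold change with an unadjusted p under 0.05, beside 6.49% of all genes in either direction, and the most abundant was Ngp, at 325 CPM in control and 171 CPM in tRA mice. The study lists Camp, Ngp and Ltf among its significant genes from these same libraries, so the count of 7 is not an independent result. The part of neutrophil precursors in the value of Cebpe was not tested. Cd38, at 92.7 ± 5.20 CPM in control and 102.1 ± 6.70 CPM in tRA mice, and Asb2, at 41.2 ± 3.81 and 37.7 ± 6.21 CPM (SD, n = 4 each), were, besides Itga4, the target genes highest by level per length.

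The genes of retinoic acid breakdown, which respond to tRA in many tissues, were near the limit of detection. Cyp26a1 had 13, 0, 9 and 3 counts in the control mice and 7, 7, 4 and 3 in the tRA mice, and Cyp26b1 had 4, 3, 8 and 3 counts in control and 8, 4, 2 and 7 in tRA mice. Neither passed the filter, both are named after their values were seen, and at these counts no difference between the groups was detectable.

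Of 16 genes for retinoid supply and binding, 9 were tested, and 0 had an FDR under 0.1 or an unadjusted p under 0.05. Their median log2 fold change was 0.11, with 7 positive and 2 negative values, and it ranged from 0.015 (without control replicate 4) to 0.18 (without control replicate 3) in the fits without 1 mouse. The highest by level per length were Rdh11, Rdh10 and Rdh5, which encode retinol dehydrogenases. Rdh11 stood at 28.7 ± 3.11 CPM in control and 28.8 ± 2.83 CPM in tRA mice, Rdh10 at 16.2 ± 1.05 and 16.8 ± 0.929 CPM, and Rdh5 at 9.11 ± 1.43 and 9.84 ± 0.792 CPM (SD, n = 4 each). These differences were smaller than the spread between mice.

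Markers of B and T cells, the main cells of the spleen, were abundant. The 4 B cell markers summed to 3946 ± 388 CPM in control and 3939 ± 147 CPM in tRA mice, and the 5 T cell markers to 785 ± 82.1 and 858 ± 27.0 CPM (SD, n = 4 each). Cell types in which Rxra is abundant showed sums of 275 ± 61.0 and 287 ± 48.5 CPM for 4 monocyte markers, 373 ± 67.7 and 349.7 ± 72.3 CPM for 5 red pulp macrophage markers, and 669 ± 136 and 589 ± 141 CPM for 5 mature neutrophil markers. Within the last list S100a8 (log2 fold change -0.63) and S100a9 (-0.58) were lower, as the precursor markers were, with unadjusted p of 0.00953 and 0.00357 in edgeR's test. Retnlg (-0.41) was also lower, with p of 0.175, and Cxcr2 (0.39) and Csf3r (0.25) were higher, with p of 0.0628 and 0.293. Stromal cells, which express Rarb in many organs, were scarce, with 4.58 ± 1.05 CPM in control and 4.18 ± 1.06 CPM in tRA mice for 6 markers, and 4 endothelial markers summed to 262 ± 10.7 and 266 ± 11.5 CPM, of which Pecam1, a gene that leukocytes also express, made up 239.8 and 240.1 CPM. The 4 plasma cell markers summed to 757 ± 88.5 CPM in control and 591 ± 81.1 CPM in tRA mice, with Jchain, the most abundant, at 609 and 443 CPM and a log2 fold change of -0.46 (unadjusted p = 0.00390 in edgeR's test). The fall in the sum is that of Jchain: of the 4 log2 fold changes 2 were negative (Sdc1 at -0.17) and 2 positive (Prdm1 at 0.11 and Xbp1 at 0.020). The sums of 3 plasmacytoid dendritic cell markers were 164 ± 9.98 and 147 ± 14.0 CPM, with all 3 log2 fold changes negative and Bst2 at -0.32 (unadjusted p = 0.00400 in the same test). Siglech was at -0.090 and Tcf4 at -0.12, with unadjusted p of 0.761 and 0.195 in that test. For 5 conventional dendritic cell markers, of which 4 had a negative log2 fold change, the sums were 56.2 ± 9.20 and 50.0 ± 6.04 CPM. The 3 NK cell markers summed to 103 ± 21.5 and 111 ± 10.1 CPM and the 4 platelet markers to 7.32 ± 0.433 and 6.57 ± 0.527 CPM (SD, n = 4 each). Each marker gene with an unadjusted p under 0.05 also had one in all 8 fits that left out 1 mouse (edgeR). The part of these cell types in the levels of the receptor genes was not tested. Of the 14 marker lists, the neutrophil precursor list was the 1 whose sums did not overlap between the groups, beside 3.54% of single genes. That list holds genes that the study had reported as changed in these data. The sum of the 6 erythroid markers varied most, from 467 CPM in control replicate 4 to 3432 CPM in tRA replicate 3.

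For each receptor gene tested, the genes whose log2 CPM followed it most closely over the 8 mice were found among all genes tested, as a description. Rara was followed by Pfkfb4 (Pearson's r = 0.976, Spearman's rho = 0.976), Med27 (r = 0.964) and Ms4a6d (r = 0.958). Rarg was followed by Lta4h (r = 0.965, rho = 0.952), 4930581F22Rik (r = 0.962) and Rundc3a (r = 0.952), and Rarb by Mpzl2 (r = 0.975, rho = 0.952) and Cd226 (r = 0.972). Among the RXR genes, Rxra was followed by Nubp1 (r = 0.973, rho = 0.952), Col5a1 (r = 0.951) and Ano7 (r = 0.942), and Rxrb by Rnf114 (r = 0.982, rho = 1), Isg15 (r = 0.970) and Gpx7 (r = 0.966). Without the 2 mice farthest from the median of the receptor gene, r was 0.951 for Pfkfb4, 0.937 for Mpzl2, 0.968 for Lta4h, 0.904 for Nubp1 and 0.964 for Rnf114. These are among the highest values of 16484 genes over 8 mice that share their libraries. The genes were picked on all 8 mice, so the values without 2 of them are not a separate check. Mean levels were low for Mpzl2 (0.477 CPM), Ano7 (0.578) and Gpx7 (0.933).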

How the data were processed

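RNA of total splenocytes was sequenced, and the authors deposited a matrix of unnormalized counts, one column per mouse. The study's methods and the submitters' processing notes both name DESeq2, and the notes give its version as 1.26.0 and the genome as GRCm38. For the steps before it, the methods name ea-utils, Btrim, Bowtie2, Tophat2 and HTSeq, whereas the notes name STAR 2.5.2b and featureCounts 1.5.1. Which of these made the counts, and how reads from shared bases were treated, is not given in the sources used here. A deposited DESeq2 comparison (means, fold changes, standard errors, statistics and p-values) was not used. GENCODE M21 on GRCm38, not stated to be the authors' annotation, gave symbols, positions and exon lengths for 51633 of 51826 identifiers.

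The versions used here were edgeR 4.0.16, DESeq2 1.42.0 and limma 3.58.1 under R 4.3.3, and matplotlib 3.10.9 under Python 3.11.15. Low counts were removed by filterByExpr (minimum 10 counts), libraries were scaled by TMM, and all 8 entered 1 quasi-likelihood fit in edgeR, a step checked on simulated counts. The SE is the size of the log2 fold change divided by the square root of F, and log2 CPM for SDs and for genes that follow a receptor gene used CPM + 0.5. No 2 mice of a group agreed within sampling noise.

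Named were the receptor genes, the 3 genes most correlated with each, and from each list the 3 highest by level per length and any at an FDR under 0.1 or an unadjusted p under 0.05. Of these, 1 gene is not reported here. The members and lists were chosen with earlier results of these data known. The alternatives were other tools, normalizations and filters, protein-coding genes alone, a replicate block, robust empirical Bayes, another transcript length, and each mouse left out in turn.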

Additional observations from a re-analysis of the deposited data

Results flagged for a closer look

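Of 134 groups of 4 mice (67 genes of the receptor and pathway lists, in control and in tRA mice), 7 held a mouse whose CPM lay far from the other 3, and chance gives about 1 in 20. None was in a receptor gene. In control replicate 3, Tbl1x was at 79.4 CPM (90.0 to 91.6 in the other controls), Ncoa2 at 72.7 (110.1 to 115) and Rdh5 at 11.2 (8.17 to 8.63). In control replicate 4, Aldh1a2 was at 0.0969 CPM (0.529 to 0.607 in the others). Among the tRA mice, Rdh11 was at 33.0 CPM in replicate 3 (26.9 to 27.7), Dhrs9 at 5.22 in replicate 4 (2.60 to 2.74) and Esrra at 52.9 in replicate 1 (42.5 to 44.0).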

How the results depend on the processing

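The number of receptor genes at an FDR under 0.1 was 0 under every alternative run, the 8 fits without 1 mouse included, and the 5 pathway lists also had a count of 0 wherever they were refitted. The number of genes at this FDR was 0 with edgeR, 44 with DESeq2, 1 with limma-voom, 6 without a filter on low counts, and 27 with DESeq2 without a filter, which was chosen after seeing the data. Leaving out 1 mouse gave 0 to 3 genes, with 3 without tRA replicate 4. The cause of these shifts was not tested.

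The log2 fold change kept its sign in all 17 alternatives for Rara (0.029 to 0.13), Rarb (0.31 to 0.53), Rarg (-0.13 to -0.013) and Rxrb (-0.072 to -0.012). That of Rxra ranged from -0.053 to 0.11 without 1 mouse. For Rarb the unadjusted p ranged from 0.0396 (without control replicate 2) to 0.158 and the FDR from 0.394 to 0.999. Without 1 mouse, Ncoa3 ranged from -0.013 to 0.13 and Rdh11 from -0.073 to 0.066, and with at least 10 counts in every library Rdh11 was at -0.00037.

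The groups share replicate numbers, but not every same-numbered pair deviated together (correlations 0.210, -0.024, -0.022 and 0.308), and 3 of 8 libraries correlated best with their own number. With the replicate block the count was 0 genes and 0 receptor genes, and Rarb had a log2 fold change of 0.44 (FDR 0.690).

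The median of the retinoic acid target genes was 0.098 without a filter and -0.033 with at least 10 counts in every library. Rarb had 0.315 CPM per kb over all its exon bases, 0.533 by its longest transcript, and 0.510 when all its counts were divided by the length that no other gene shares, chosen after seeing the data. Depth limits Rarb and Rxrg most.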

Other observations

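Among the other nuclear receptor genes, 2 are described because of their spread, a choice made with the values in view. Nr1h4, which encodes the bile acid receptor FXR, had 351, 183, 409 and 216 counts in the control mice and 254, 0, 318 and 208 in the tRA mice, so that tRA replicate 2 had no count where the other 7 mice had at least 183. Nr2c2, which encodes the testicular receptor TR4, stood at 33.1, 34.8, 11.2 and 45.6 CPM in the control mice and at 17.6, 28.8, 33.2 and 49.3 CPM in the tRA mice, with its lowest values in control replicate 3 and tRA replicate 1.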
